A study of Rattus norvegicus with 24 samples.

Results

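The 9 genes described here are those by which GABA-releasing neurons and their main classes are recognised in the brain: Gad1, Gad2, Slc32a1, Pvalb, Sst, Npy, Vip, Cck and Calb2. They were found by gene name, as every non-control probe whose name on the array, or whose current rat symbol, was 1 of the 9. This gave 11 probes for 9 of the 35523 gene or transcript names on the array, with 3 probes for Gad1 and 1 for each other gene. The rule itself uses names and no measured value.

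The tissue came from male Wistar rats, 10 weeks old, that received saline or MK-801, a blocker of the open channel of the NMDA glutamate receptor, by injection into the abdomen and were killed 40 min later. MK-801 was given at 0.16 mg per kg (high dose) or 0.08 mg per kg (low dose), and 9 rats in all, 3 of them on saline, gave cerebral cortex, hippocampus, amygdala, ventral striatum, hypothalamus and midbrain. On 24 arrays, read in 2 colours, RNA of treated rats was hybridised together with saline RNA from the same region, and each region and dose had a dye swap of 2 arrays. Which rats an array holds, and whether their RNA was mixed, the labels leave unsaid, and a dye swap was taken as a single value.

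GABA is the main inhibitory transmitter of the brain. Gad1 and Gad2 encode the enzymes that make it from glutamate, and Slc32a1 encodes the transporter that loads it into synaptic vesicles, so these 3 mark inhibitory neurons of any kind, including the projection neurons of the striatum. Pvalb and Calb2 encode the calcium-binding proteins parvalbumin and calretinin, and Sst, Npy, Vip and Cck encode neuropeptides. In cortex and hippocampus these markers divide interneurons into classes, but several are also made by other cells: Cck by cortical pyramidal and thalamic neurons, Calb2 and Pvalb by thalamic and midbrain neurons, and Vip by neurons of the suprachiasmatic nucleus. A whole-tissue level therefore does not separate the classes, and fewer cells of a type cannot be told apart from less RNA per cell.

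The 3 Gad1 probes lie on chromosome 3 in rn3 coordinates as given by the files. Gad1-1 lies at 52709400 to 52709459, Gad1-2 at 52711459 to 52713893, a stretch of 2435 bases for a probe of 60, so that it crosses a splice junction, and Gad1-3 at 52725286 to 52725345. The Gad2 probe lies on chromosome 17 at 96332395 to 96332454 and the Slc32a1 probe on chromosome 3 at 149252692 to 149252751. The first part of the Sst probe, on chromosome 11 at 79183616 to 79183651, is shown up to the stop codon in capitals. The Gad1, Gad2 and Sst letters are shown because the 2 Gad1 probes, although from 1 transcript, differed in their response to the dyes, and because these probes carry the levels given next.
Gad1-1: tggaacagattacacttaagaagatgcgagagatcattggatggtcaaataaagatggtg
Gad1-2: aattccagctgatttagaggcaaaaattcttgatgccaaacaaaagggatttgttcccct
Gad2: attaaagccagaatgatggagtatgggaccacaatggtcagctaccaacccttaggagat
Sst: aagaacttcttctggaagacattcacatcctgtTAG

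On all 24 arrays the scanner marked all 11 probes as well above background in either colour, so no member was lost to low signal. Over all probes this share was 55.2% to 78.5% on an array, and the median signal was at least 1.82 times background in Cy3 and at least 3.23 times in Cy5. The Slc32a1 spot carried the scanner's outlier flag on 5 arrays and was left out of the tests there, so its levels and per-region values are given with the flagged spots kept. Levels are log2 signals after normalization, given as mean ± SD over the 4 arrays of a region. Which rats stand behind this SD is not known, and levels of different probes were not compared. Regions are said to overlap where the ranges between their 2 dye-swap means do. Regions that do not overlap by this rule can still overlap in their single arrays.

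In saline RNA the 3 genes of GABA synthesis and vesicle loading had 1 order at the top: ventral striatum first, midbrain second. Gad2 stood at 11.77 ± 0.05 in ventral striatum, 11.23 ± 0.23 in midbrain, 10.45 ± 0.20 in cortex, 10.41 ± 0.12 in amygdala, 9.66 ± 0.31 in hippocampus and 9.62 ± 0.20 in hypothalamus (n = 4 arrays each). The span was 4.43-fold, and the swaps of cortex and amygdala, and of hippocampus and hypothalamus, overlapped. Slc32a1 stood at 14.30 ± 0.14 in ventral striatum, 13.81 ± 0.27 in midbrain, 13.45 ± 0.11 in hypothalamus, 12.92 ± 0.38 in hippocampus, 12.90 ± 0.21 in amygdala and 12.56 ± 0.18 in cortex, a span of 3.36-fold. Only the neighbours hippocampus and amygdala overlapped for Slc32a1.

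For Gad1, the probe Gad1-1 ran from 9.10 ± 0.24 in ventral striatum through 8.51 ± 0.27 in midbrain to 7.42 ± 0.33 in hippocampus. Gad1-2 ran from 10.13 ± 0.29 through 9.26 ± 0.30 in the same 2 regions to 8.09 ± 0.13 in hypothalamus. Gad1-3 ran from 11.34 ± 0.62 through 10.95 ± 0.37 to 10.21 ± 0.88 in cortex, and 4 of its 5 neighbouring pairs overlapped. The hypothalamus was thus among the 2 lowest regions for Gad1-1, Gad1-2 and Gad2 but stood above 3 other regions for Gad1-3 and Slc32a1. Over the 6 regions the profiles of Gad1-1 and Gad2 correlated with r = 0.96 and those of Gad1-3 and Slc32a1 with r = 0.97, whereas Gad1-3 and Gad2 gave r = 0.63; the 6 points share slides and normalization.

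The calcium-binding proteins were highest in midbrain, with hypothalamus second. Calb2 had the widest span of the 11 probes, 22.4-fold. It stood at 15.15 ± 0.11 in midbrain, 14.78 ± 0.29 in hypothalamus, 13.05 ± 0.16 in amygdala, 10.94 ± 0.55 in hippocampus, 10.68 ± 0.26 in ventral striatum and 10.66 ± 0.14 in cortex. The last 3 regions overlapped one another in sequence, and the first 3 were set apart from them. Pvalb stood at 13.87 ± 0.08 in midbrain, 13.53 ± 0.25 in hypothalamus, 12.67 ± 0.68 in cortex, 11.48 ± 0.76 in hippocampus, 11.36 ± 0.19 in ventral striatum and 10.54 ± 0.27 in amygdala. Hippocampus and ventral striatum overlapped for Pvalb.

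Sst and Npy, peptides that many cortical and striatal interneurons make together, were high in the 4 forebrain regions other than hypothalamus and low in hypothalamus and midbrain. Sst stood at 14.74 ± 0.06 in cortex, 14.55 ± 0.03 in amygdala, 14.48 ± 0.24 in ventral striatum, 14.11 ± 0.29 in hippocampus, 12.64 ± 0.12 in midbrain and 12.27 ± 0.26 in hypothalamus. Npy stood at 14.56 ± 0.09 in ventral striatum, 14.36 ± 0.16 in cortex, 13.35 ± 0.21 in amygdala, 13.28 ± 0.17 in hippocampus, 12.44 ± 0.14 in hypothalamus and 11.58 ± 0.16 in midbrain. The spans were 5.54-fold and 7.88-fold. Amygdala overlapped with ventral striatum for Sst and with hippocampus for Npy, and the 2 profiles correlated with r = 0.86 over 6 regions. Against Calb2, Sst gave r = -0.87 and Npy r = -0.91.

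Vip and Cck were both highest in cortex, with hypothalamus second. Cck stood at 15.49 ± 0.07 in cortex, 15.23 ± 0.02 in hypothalamus, 14.46 ± 0.26 in hippocampus, 14.27 ± 0.16 in amygdala, 13.49 ± 0.14 in midbrain and 12.49 ± 0.12 in ventral striatum. No neighbours overlapped in their dye-swap means, which were close for hippocampus (14.35 and 14.57) and amygdala (14.31 and 14.24). Vip, whose product widens vessels and marks interneurons that inhibit other interneurons, stood at 13.85 ± 0.42 in cortex, 13.36 ± 0.77 in hypothalamus, 13.18 ± 0.09 in amygdala, 12.30 ± 0.86 in hippocampus, 10.00 ± 0.22 in ventral striatum and 10.00 ± 0.40 in midbrain. The first 3 regions of Vip overlapped in sequence, as did the last 2, and the span was 14.4-fold. The saline signal of Vip in hypothalamus was 14.00 on the arrays of the high dose and 12.72 on those of the low dose. Vip and Cck correlated with r = 0.92 over the 6 regions and each lay between r = -0.73 and -0.90 against the 3 Gad1 probes, Gad2 and Slc32a1.

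**Figure D1:**
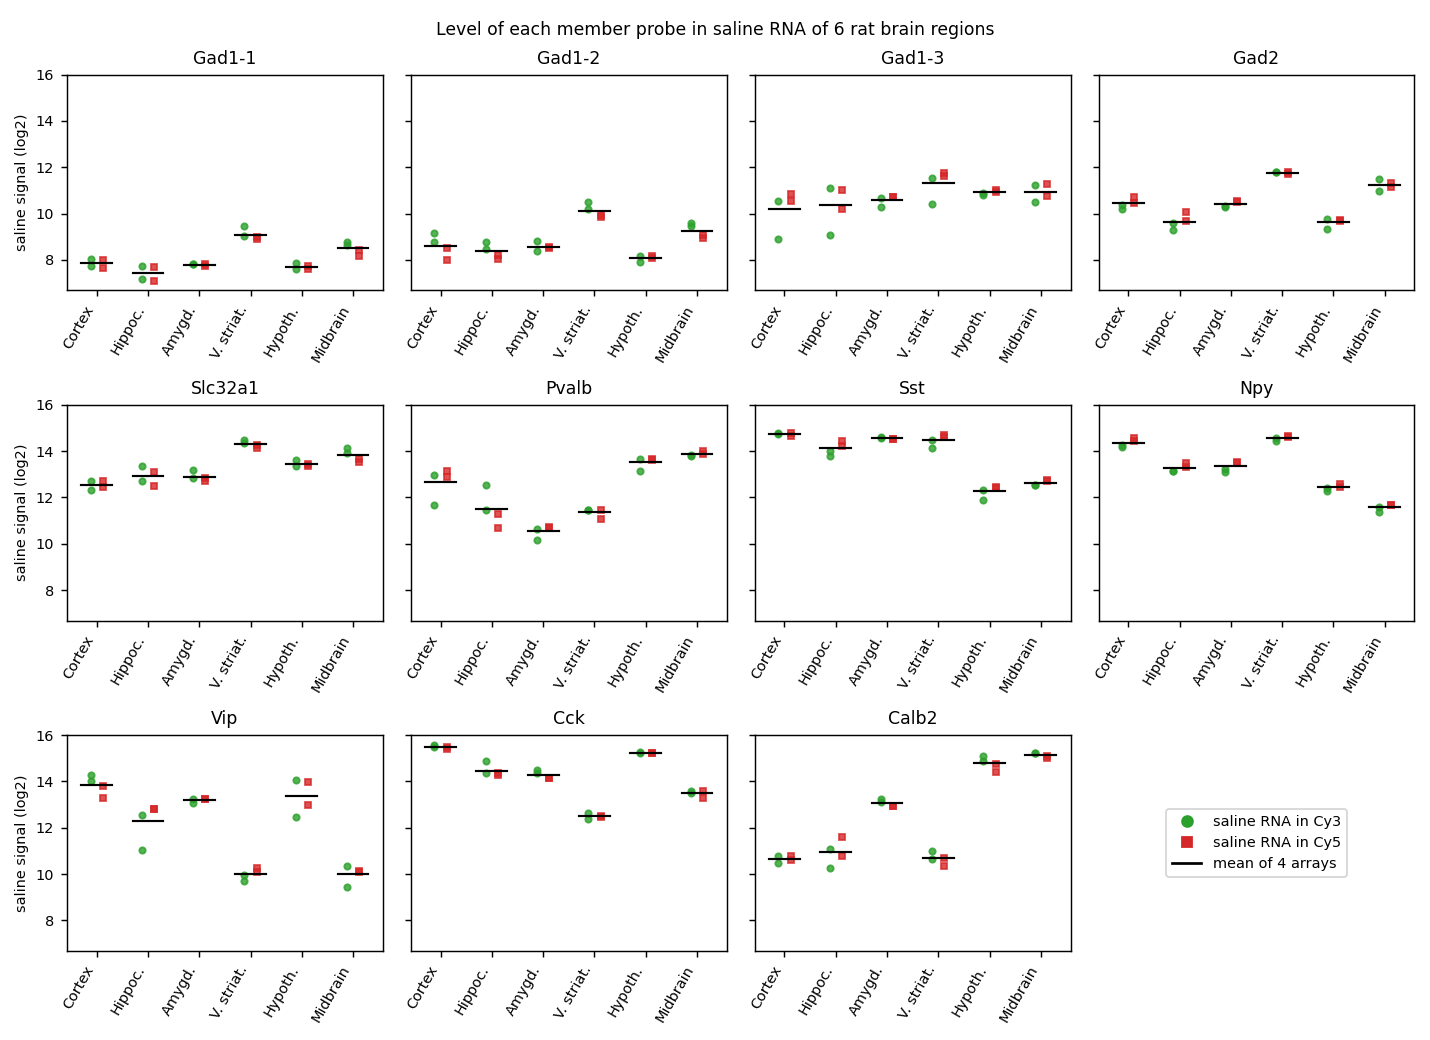
Saline signal (log2, vertical axis) of each of the 11 member probes on the 24 arrays, by brain region (horizontal axis). Circles are arrays with saline RNA in Cy3, squares arrays with saline RNA in Cy5, and the line is the mean of the 4 arrays; Calb2 runs from 15.15 in midbrain to 10.66 in cortex, while the 3 Gad1 probes, Gad2 and Slc32a1 are highest in ventral striatum.

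The regional differences were tested in the RNA of the MK-801 rats, with 1 level per region and dose. All 10 member probes with values on every array were called (F test over regions in limma, Benjamini-Hochberg adjusted p under 0.05), beside 55.4% of all probes tested, so the share of members called is to be read against a majority of probes. The adjusted p ran from 2.6e-08 for Calb2 to 0.0236 for Gad1-3, and Slc32a1, tested with its flagged spots kept, gave 2.93e-05. The region with the highest level was the same in saline RNA, in low-dose RNA and, with the exception of Vip, in high-dose RNA, where Vip was highest in hypothalamus at 14.32 against 13.99 in cortex. Since a slide held the arrays of 1 region, region and slide cannot be told apart.

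Markers of the dissected regions bear on how these levels read. In saline RNA, 7 of 7 markers of striatal projection neurons were highest in ventral striatum and 5 of 5 of monoamine neurons in midbrain. Of 6 hypothalamic peptide markers, 3 were highest in hypothalamus, among them Pmch at 13.07, whereas Avp was highest in amygdala at 11.05 and Hcrt stood at 8.25 to 8.77 in every region. Of 5 markers of thalamic neurons, a list added after the saline levels were seen, 4 were highest in the tissue labelled hypothalamus, with Prkcd at 15.82 there against 12.71 in midbrain and Slc17a6, a glutamate transporter of thalamic and hypothalamic neurons, at 14.58. The part of such cells in the hypothalamic levels of Calb2, Pvalb and Cck was not tested.

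By the rule of likeness, the 3 genes whose saline level followed each member most closely over 12 values (6 regions and 2 dye swaps, among 4297 candidate probes) were taken. The highest correlations were Kcnv1 with Sst (r = 0.991), Onecut1 with Calb2 (r = 0.991), Homer1 with Npy (r = 0.981), Map3k9 with Cck (r = 0.979), Slc5a7 with Slc32a1 (r = 0.977) and Stk39 with Pvalb (r = 0.976). Slc5a7 encodes the choline transporter of cholinergic neurons and Onecut1 a transcription factor. Ephb1 followed Gad2 with r = 0.955, Lingo1 followed Vip with r = 0.904, and Bmp2 followed Gad1 with r = 0.860. The remaining places went to Arf3 (0.977) and Gpm6a (0.976) for Sst, Macrod1 (0.976) and Gdpd2 (0.971) for Calb2, and Syt5 (0.974) and Camkk2 (0.965) for Npy. Kcnk4 stood in the lists of both Cck (0.970) and Vip (0.899), beside Efhd2 (0.965) and Slc13a5 (0.900). Zfp503 (0.976) and Zfp385d (0.972) followed Slc32a1, Hcn3 (0.958) and Kcnab3 (0.946) followed Pvalb, Gipr (0.945) and Zswim6 (0.939) followed Gad2, and P2ry1 (0.845) and Fra10ac1 (0.841) followed Gad1. With 4297 candidates and 12 values that share 6 slides, such correlations are a description only.

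MK-801 against saline was the comparison the study was built for. None of the member probes was called across the regions. Over both doses 0 of 10 were called, where 2.46% of all 27267 probes were (1.29% higher, 1.17% lower). At the high dose 0 of 11 were called, where 2.01% were (1.05% higher, 0.952% lower), and at the low dose 0 of 10, where 2.42% were (1.19% higher, 1.23% lower). For high minus low dose the count was 0 of 10, where 1.44% were called. At these shares fewer than 1 call is expected among so few probes, so the counts say nothing particular about the members. The tests were limma's against 0 on 6 regional values with Benjamini-Hochberg adjustment over all probes. Unadjusted p lay under 0.05 for 0, 4, 0 and 5 member probes in the order given. Over all probes tested it did so for 3681 of 27267, 3300 of 27530, 3560 of 27531 and 2949 of 27267. Gad1-1 and Gad1-3, probes of 1 gene, were among the 4 and among the 5. Such p values rest on how far the regions of 1 set of 9 rats differ, without the spread among saline rats. Both doses draw on the same group of 3 saline rats, though the labels do not say whether on the same RNA.

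The sizes were small. Over both doses the log2 ratios of the 10 member probes ran from -0.06 for Sst to 0.07 for Pvalb, their median was -0.04, and the median of all probes was 0.00. Taken without the sign, the median was 0.05 for the members and 0.02 for all probes. It was 0.07 against 0.03 at the high dose, 0.05 against 0.03 at the low dose and 0.07 against 0.03 for high minus low. The 95% intervals of all 10 lay between -0.18 and 0.15. An average change over the regions larger than those bounds is outside the interval of each tested member, while smaller ones are not shown to be absent.

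Among the genes of GABA synthesis, Gad1-1 at the high dose had the lowest p of the members. Its 6 regional ratios were -0.08 in midbrain, -0.18 in amygdala, -0.06 in ventral striatum, -0.04 in cortex, -0.03 in hippocampus and -0.17 in hypothalamus. All 6 lay below 0, with a mean of -0.09 ± 0.07 (SD, n = 6 regions), or 0.937-fold, at an adjusted p of 0.165 in limma. At the low dose the same probe gave 0.06 ± 0.12 with 3 regions on either side of 0, and high minus low was -0.15 ± 0.15 (adjusted p = 0.213 in limma, lower in 5 of 6 regions). Gad1-3 stood at -0.11 ± 0.16 at the high dose and Gad1-2 at -0.07 ± 0.09, each below 0 in 4 of 6 regions, with adjusted p of 0.409 and 0.466 in limma. The 3 probes of Gad1 thus had 1 sign at the high dose, and none passed the test.

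Gad2 lay on the other side of 0, at 0.05 ± 0.05 at the high dose with 5 of 6 regions above 0 and at 0.05 ± 0.13 at the low dose with 3 of 6. Over both doses it stood at 0.05 ± 0.07 (adjusted p = 0.455 in limma). Slc32a1 was tested at the high dose only in 4 regions and gave -0.02 ± 0.11. With flagged spots kept it gave -0.07 ± 0.12 at the high dose in 6 regions, 4 of them below 0, with an adjusted p of 0.514 in limma. Over both doses, with flagged spots kept, it gave -0.05 ± 0.08 in 6 regions, with an adjusted p of 0.552 in limma.

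Npy lay above 0 in every region at the high dose. Its high-dose ratios were 0.02 in midbrain, 0.18 in amygdala, 0.05 in ventral striatum, 0.07 in cortex, 0.05 in hippocampus and 0.12 in hypothalamus. The mean was 0.08 ± 0.06 (n = 6 regions), or 1.06-fold with a 95% interval of 1.02 to 1.10, at an adjusted p of 0.22 in limma. At the low dose it was 0.00 ± 0.03 with 3 regions above 0. Pvalb stood at 0.10 ± 0.15 at the high dose, above 0 in 5 of 6 regions, with ventral striatum at 0.35 and midbrain at -0.10 as the extremes (adjusted p = 0.434 in limma).

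Calb2 stood at -0.08 ± 0.10 at the high dose, below 0 in 5 of 6 regions (adjusted p = 0.411 in limma), and amygdala at -0.28 lay apart from the other regions, which reached -0.06 at the lowest. In amygdala, 4 of 6 astrocyte markers were below 0 at both doses (mean level 12.33 to 12.75 in saline RNA and 12.07 to 12.58 in MK-801 RNA) and 6 of 7 striatal markers above 0 (8.67 to 8.72 and 8.81 to 8.91). Of 6 hypothalamic peptide markers, 3 were below 0 there at both doses and 2 above (8.52 to 8.61 and 8.01 to 8.31), with Avp at -1.88 and -1.69 and Oxt at -0.98 and -1.07. All 3 choroid plexus markers were above 0 at both doses (10.53 to 11.01 and 11.08 to 11.98), with Ttr at 1.34 and 0.19 and Folr1 at 0.90 and 0.20. No marker of these lists was below background on all saline channels there, and their part in the Calb2 value was not tested. Cck stood at -0.01 ± 0.10 at the high dose and -0.10 ± 0.15 at the low dose. The high dose was above the low dose for Cck in 6 of 6 regions by a mean of 0.10 ± 0.08, at an adjusted p of 0.327 in limma. Sst stood at -0.04 ± 0.16 and -0.08 ± 0.15 at the high and low dose.

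**Figure D2:**
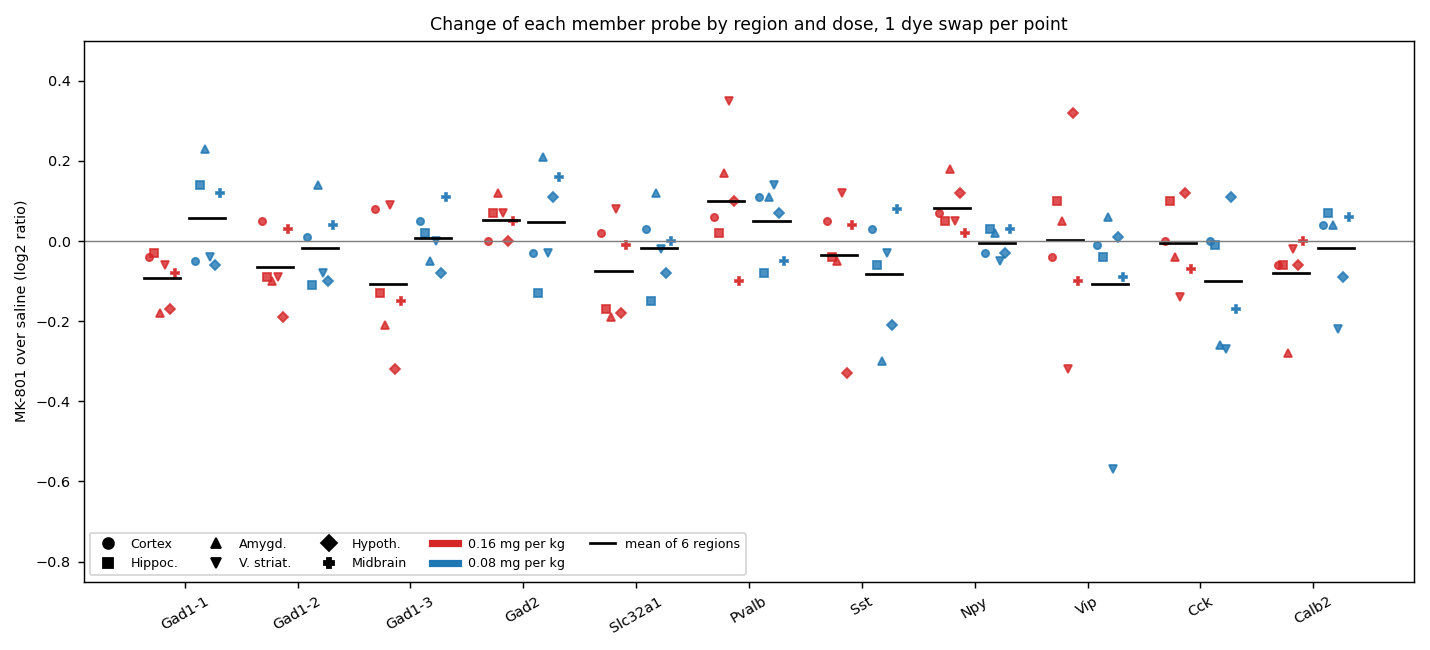
Log2 ratio of MK-801 to saline (vertical axis) of each member probe (horizontal axis); each point is the dye swap of 1 region, red at 0.16 mg per kg and blue at 0.08 mg per kg, with the marker shape giving the region and the line the mean of 6 regions. No probe's regional values were called against 0, and the lowest point is Vip in ventral striatum at the low dose, at -0.57.

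Single arrays moved more with the dye than with the drug for some members. The Gad1-2 probe read lower on all 12 dye swaps when the MK-801 RNA carried Cy5, with a median dye effect of -0.29 (log2, range -0.58 to -0.01), and Npy read higher on all 12, with 0.20 (0.14 to 0.27). The size over all probes tested had a median of 0.07. Gad1-1, from the same transcript as Gad1-2, had a median dye effect of -0.03, and Gad2 had 0.00. The dye effect cancels in the mean of a swap so far as it is equal on both arrays, which 1 swap per region and dose cannot show. Every test above used such means.

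**Figure D3:**
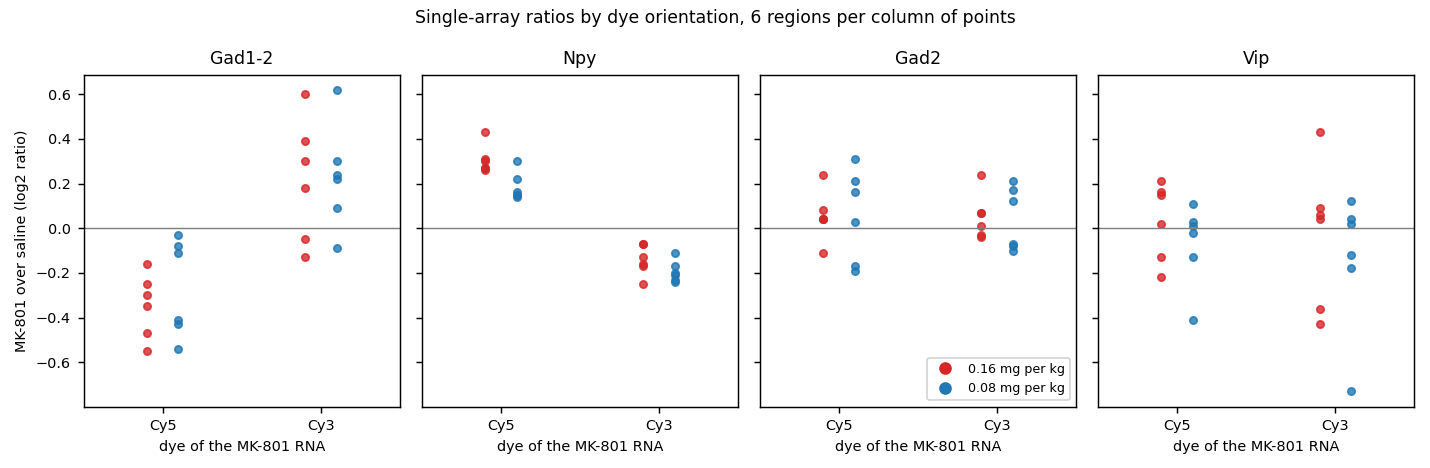
Log2 ratios of MK-801 to saline on single arrays (vertical axis) for Gad1-2, Npy, Gad2 and Vip, by the dye that carried the MK-801 RNA (horizontal axis), with 6 regions per column of points, red at 0.16 and blue at 0.08 mg per kg. The 2 orientations of Npy do not overlap, while those of Gad2 do.

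Vip was the 1 member probe called for a change that differed between regions (F test over regions on 12 dye swaps with a dose term, limma, highest minus lowest region 0.61, adjusted p = 0.0193). That is 1 of 10 tested, beside 1.18% of all probes. In ventral striatum its 4 arrays read -0.22 and -0.43 at the high dose and -0.41 and -0.73 at the low dose, all below 0. The dye-swap means were -0.32 and -0.57. In hypothalamus the arrays read 0.21 and 0.43 at the high dose, with a mean of 0.32, and -0.02 and 0.04 at the low dose, with a mean of 0.01. The other 4 regions had dye-swap means between -0.10 and 0.10. Ventral striatum was thus the low region at both doses, and hypothalamus the high one at the high dose alone. Both doses of a region were set against saline RNA of that region from the same group of saline rats, so they cannot be taken as independent. A difference between the saline RNAs of the regions would give the same pattern and cannot be told apart from it.

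Cortex was scanned on the same day as ventral striatum, but on another slide, and gave Vip ratios of -0.04 and -0.01. Region and slide cannot be told apart for this gap. Without the ventral striatum the adjusted p was 0.341 and the highest minus lowest region 0.26, and the call also ended with the scanner's own processed ratios (0.172), with the deposited value table (0.179) and with median centring in place of loess (0.357). The saline level of Vip in ventral striatum was among the lowest of the regions, as given above.

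Cck, whose regional profile resembled that of Vip, stood at -0.14 (high) and -0.27 (low) in ventral striatum. Of 6 markers of excitatory neurons, 3 were below 0 there at both doses and 0 above it at both. Neurod2, a transcription factor of cortical and hippocampal projection neurons, stood at -0.31 and -0.57 there, Neurod6 at -0.33 and -0.20, and Slc17a7 at -0.13 and -0.12. The mean level of the 6 markers was 8.49 to 8.58 in saline RNA and 8.31 to 8.51 in MK-801 RNA over the arrays of ventral striatum, and none was below background in all saline samples. Of 6 oligodendrocyte markers, 6 were above 0 at both doses, with medians of 0.20 and 0.16. Such shifts were not confined to ventral striatum. Oligodendrocyte markers were above 0 at both doses for 5 of 6 in midbrain (medians 0.19 and 0.15) and 5 of 6 in cortex (0.14 and 0.10), but for 1 of 6 in hypothalamus. Excitatory markers were below 0 at both doses for 6 of 6 in midbrain (-0.10 and -0.10) and for 1 of 6 in cortex. Sst, also high in cortex, stood at 0.12 and -0.03 in ventral striatum. The part of these cells in the Vip result was not tested.

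The tissue labelled hypothalamus also differed between its RNA samples. Pmch, a peptide of lateral hypothalamic neurons, stood at -2.96 at the high dose and -1.76 at the low dose, Th at -0.96 and -0.93, and 6 of 7 striatal markers were below 0 at both doses. Of the 6 hypothalamic peptide markers 4 were below 0 at both doses and 2 above, with list medians of -0.03 and -0.09. Their mean level, in which Pmch is included, was 9.70 to 9.90 in saline RNA and 9.28 to 9.53 in MK-801 RNA. Of the 5 thalamic markers 3 were above 0 at both doses and 1 below. The mean level of these 5 was 10.36 to 10.74 in saline RNA and 10.49 to 10.80 in MK-801 RNA. Among the members in this tissue, Sst stood at -0.33 and -0.21, Cck at 0.12 and 0.11, and Gad1-3 at -0.32 and -0.08. Their share in the ratios of Vip and Sst there was not tested.

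Cck, Sst and Pvalb came next by the same test of regions, with adjusted p of 0.0647, 0.103 and 0.109 in limma. For Cck the dye-swap means ran from -0.27 in ventral striatum at the low dose to 0.12 in hypothalamus at the high dose. For Sst, hypothalamus (-0.33 and -0.21) was below 0 on all 4 arrays, and amygdala stood at -0.05 and -0.30. For Pvalb, ventral striatum was above 0 on all 4 arrays, with means of 0.35 and 0.14. The remaining member probes had adjusted p between 0.253 and 0.781.

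**Figure D4:**
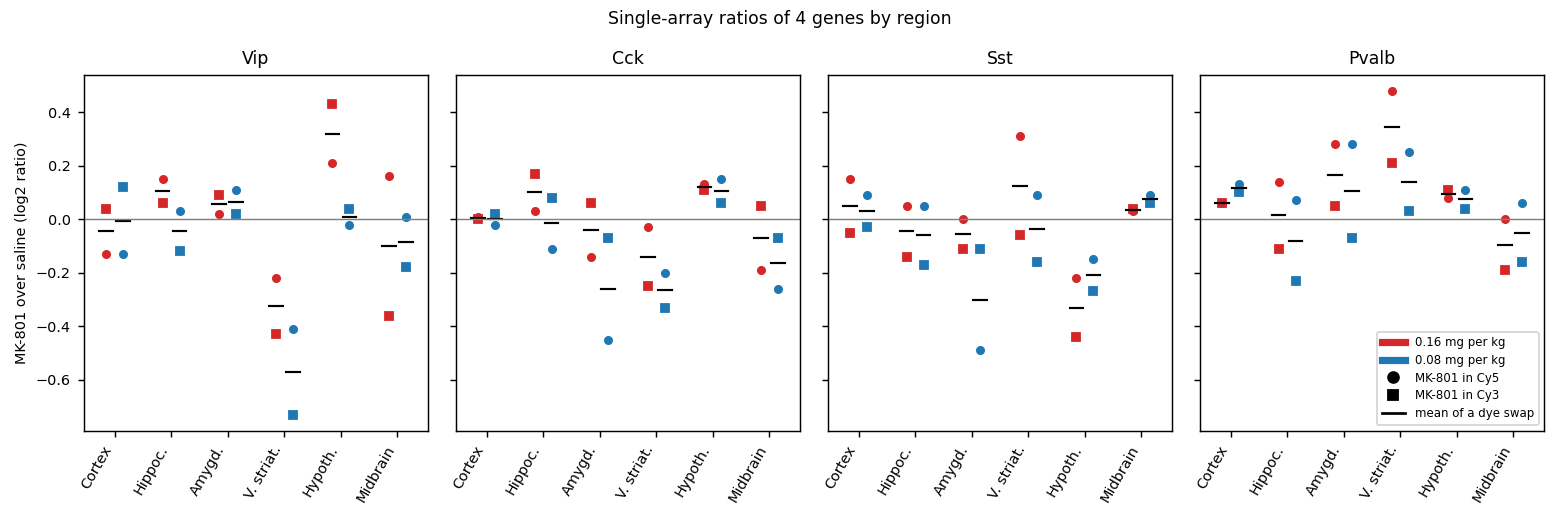
Log2 ratios of MK-801 to saline on single arrays (vertical axis) for Vip, Cck, Sst and Pvalb by region (horizontal axis); red is 0.16 and blue 0.08 mg per kg, circles have MK-801 RNA in Cy5 and squares in Cy3, and lines are means of a dye swap. All 4 Vip arrays of ventral striatum lie below 0, from -0.22 to -0.73.

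The upstream stretch of Vip is shown because Vip is the member whose change differed between regions. The gene is known for its response to cyclic AMP through elements built on the letters TGACG. These are the 250 bases before the RefSeq start on build GRCr8, chr1:44470230-44470479, plus strand, with TGACG in capitals, ending 5′ to 3′ at the base before the start.
Vip: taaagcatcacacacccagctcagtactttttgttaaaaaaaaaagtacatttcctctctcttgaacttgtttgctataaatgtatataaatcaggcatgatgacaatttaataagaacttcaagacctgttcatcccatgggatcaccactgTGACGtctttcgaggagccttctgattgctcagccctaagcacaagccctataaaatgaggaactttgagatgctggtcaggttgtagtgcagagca
The motif TGACG, searched on both strands (as CGTCA on the other), begins 97 bases before the start. It was present in 3 of the 7 member promoters held by the RefSeq table, those of Vip, Slc32a1 and Pvalb, and in 18.2% of all 33469 promoters over the same 250 bases. The full palindrome TGACGTCA, which contains both forms, was in 0 of the 7 windows and in 1.59% of all. The windows rest on the RefSeq starts, and an element outside them is not counted. The 0 of 7 therefore does not show that a member gene, Sst included, lacks the palindrome. A match of letters is a description of the window and not a site.

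Genes around the members were read from lists, each gene by its brightest probe. Of 13 genes that handle GABA, 1 fell over both doses and 0 rose (list median -0.01, all probes 0.00). It was Slc6a13, a GABA transporter that is known from meninges and vessel-associated cells rather than neurons, at -0.24 ± 0.19 with 5 of 6 regions below 0 (adjusted p = 0.0429 in limma) and at -0.31 ± 0.21 at the low dose with 6 of 6 below 0 (adjusted p = 0.0171). At the high dose 0 of 13 were called. Without the hippocampus the low-dose adjusted p was 0.0727, and the call over both doses ended without any 1 of 5 regions, all but midbrain (adjusted p from 0.0838 to 0.141).

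Of the 14 interneuron transcription factors reported here, an incomplete list, 0 passed in limma over both doses, at the high or at the low dose (1 at an unadjusted p under 0.05 in each). Nr2f2, a nuclear receptor of interneurons from the caudal ganglionic eminence, stood at -0.08 ± 0.11 with 5 of 6 regions below 0 (adjusted p = 0.317 in limma), and Lhx8, a homeobox factor of cholinergic and other ventral forebrain neurons, at -0.04 ± 0.06. Of 23 other interneuron markers, 0 were called over both doses or at the high dose, and 1 fell at the low dose: Reln, the matrix protein reelin, at -0.13 ± 0.05 in 5 of 5 regions with a value (adjusted p = 0.0494 in limma). With the array number as a replicate block the adjusted p of Reln was 0.0719. Without the midbrain, ventral striatum, cortex, hippocampus or hypothalamus in turn it lay between 0.0813 and 0.2.

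Of 8 genes of perineuronal nets, the matrix that surrounds parvalbumin cells, 1 rose and 0 fell over both doses. Hapln1, which links hyaluronan to proteoglycans, stood at 0.12 ± 0.07 with 5 of 6 regions above 0 (adjusted p = 0.0355 in limma) and at 0.17 ± 0.10 at the low dose with 6 of 6 above 0 (adjusted p = 0.0204). In hypothalamus its saline signal was not well above background on any array. Without the hippocampus the adjusted p was 0.104 over both doses and 0.0501 at the low dose; without the midbrain, ventral striatum or cortex it lay above 0.05 for both, and without the amygdala (0.0695) over both doses.

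Of 10 receptors for the member peptides, 0 were called at either dose or over both, with list medians of -0.03 over both doses, -0.02 at the high and -0.01 at the low dose; Vipr2 and Sstr1, the largest by size, both stood at -0.08, with an adjusted p of 0.285 for Sstr1 in limma. Of 13 genes of peptide processing and secretory granules, 0 were called in the same 3 comparisons, and the largest was Vgf, a granule protein whose gene responds to neuronal activity, at -0.12 ± 0.13 in 5 regions (adjusted p = 0.234 in limma), followed by Cpe, the enzyme that trims peptide ends, at -0.04 ± 0.07.

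Some markers of other cells passed the test across the regions. Of 3 red blood cell genes, 3 rose at the high dose and 2 fell at the low dose: Hbb stood at 0.33 ± 0.23 and -0.54 ± 0.31 (adjusted p = 0.0216 and 0.00345 in limma), Alas2 at 0.30 ± 0.12 and -0.31 ± 0.19, and Slc4a1 at 0.18 ± 0.08 at the high dose. Of 6 oligodendrocyte markers, Aspa rose at both doses (0.31 ± 0.17 and 0.26 ± 0.08) and Mag at the low dose (0.13 ± 0.06). Of 6 microglia markers 3 rose at the low dose, C1qc by 0.22 ± 0.03, P2ry12 by 0.17 ± 0.07 and C1qa by 0.15 ± 0.06. Of 6 astrocyte markers 1 fell over both doses, the transcription factor Sox9 at -0.29 ± 0.04 in 5 regions. Of 4 endothelial markers the receptor Kdr fell (-0.24 ± 0.12) and the glucose transporter Slc2a1 rose (0.13 ± 0.04).

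In the lists without a call over both doses, at the high or at the low dose, the largest means over both doses were those of Neurod6 (-0.16 ± 0.16) and Neurod2 (-0.09 ± 0.24) for excitatory neurons and of Adora2a (0.03 ± 0.28) and Rgs9 (-0.03 ± 0.23) for striatal projection neurons. For monoamine neurons they were Tph2 (0.25 ± 0.42) and Slc18a2 (-0.17 ± 0.37), for hypothalamic peptide neurons Pmch (-0.44 ± 0.94) and Avp (-0.36 ± 0.71), and for choroid plexus Ttr (-0.41 ± 1.16) and Aqp1 (-0.02 ± 0.31). The part of all these cells in the small member ratios was not tested.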

How the data were processed

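Gene expression was measured in 6 brain regions on 24 Agilent two-colour arrays read with Agilent Feature Extraction 9.5.3.1, per the file headers. The deposited scanner files give a mean and a background intensity per spot and colour, per the file headers, and a software log10 ratio. The deposited value table holds log10 ratios of Cy5 over Cy3 processed signals; set against the scanner files it was neither turned for the dye swaps nor centred (array medians -0.0259 to 0), matched within 5e-07 on 19 arrays and within 0.00413 on 5, and the authors' reasons are not given in the sources used here. It served as an alternative.

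Analyses used R 4.3.3 with limma 3.58.1 and statmod 1.5.0, and matplotlib 3.10.9, numpy 2.4.6 and pandas 2.3.3 in Python 3.11.15. Intensities were background corrected by normexp (offset 50) and normalized by loess within arrays, leaving out controls and outlier-flagged spots. Replicate spots were averaged per probe and the ratios turned to log2 of MK-801 over saline by the dyes in the labels. Levels are channel signals after quantile normalization of average intensity between arrays. The 27690 of 41012 probes that the scanner marked well above background in both colours of 12 or more arrays, if they had at least 4 regional values, were tested by lmFit and eBayes, adjusted by Benjamini-Hochberg, and called under 0.05. The tests across regions and of differences between regions were tested on simulated data first. Over both doses, the test across regions recovered 88% of probes shifted by 0.2 (log2) and 99% of those shifted by 0.5, with 7 false calls. The test of differences between regions recovered 0% and 43%, with 0 false calls. A probe not called by the latter is therefore not shown to change alike in all regions. The number of arrays limits the precision. Probes were named by accession, symbol or synonym through the RefSeq gene table of GRCr8, used for names only; promoters are from RefSeq on the same build.

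Array numbers 1 to 4 are the sample numbers in the labels' descriptions, which mark dose and dye orientation alike in all 6 regions; the numbers that end the titles run low dose first in hippocampus and hypothalamus and were not used. Same-numbered arrays of different regions deviated together in all 60 pairs (correlation 0.523 to 0.746), so a fit of single arrays with the number as a block was run beside the main one.

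The members and lists were chosen with earlier results of these data known, and a thalamic list and the keeping of flagged spots were added after the data were seen. All member probes are named; from each list, every gene called over both doses, at the high or at the low dose, or else the 2 largest over both doses; and 3 most alike genes per member. A gene of the list of interneuron transcription factors is not reported here, so the counts of that list are incomplete.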

Additional observations from a re-analysis of the deposited data

Results flagged for a closer look

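The change of Vip differed between regions, by 0.61 on the log2 scale from ventral striatum to hypothalamus (adjusted p = 0.0193, limma F test). Since both doses were set against saline RNA of their region, a difference between saline RNAs cannot be told apart from this. Within the 6 regional values of Vip at the low dose, ventral striatum at -0.57 lay far from the others, the nearest of which was -0.09. Within the 6 high-dose values of Calb2, amygdala at -0.28 lay far from the nearest, -0.06. In both sets the gap was 0.765 of the range of the 6 values, above the limit used for flagging. Chance passes that limit in about 1 of 20 sets, that is in more than 1 of the 31 sets examined, and 2 were flagged. This rate is that of the limit, and how often chance gives gaps as large as these was not tested.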

How the results depend on the processing

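Outside settings that leave out 1 array number, 0 member probes were called over both doses, at the high dose, at the low dose or for high minus low dose under every alternative run, including the array number as a replicate block, which changed no call of a member and, among the named list genes, ended that of Reln at the low dose. Leaving out 1 array number leaves 1 dye orientation at that dose, and the counts then ran from 0 to 3 over both doses, 2 to 4 at the high dose, 2 to 3 at the low dose and 1 to 4 for high minus low dose. Calls were common among all probes there too, so these counts say nothing particular about the members. Over both doses 4240 to 5711 of 27379 to 27429 probes were called, and for high minus low 6198 to 8776. At the high dose 7603 of 27632 and 8875 of 27653 were called, at the low dose 9649 of 27623 and 8499 of 27650. Over those settings Npy ran from -0.14 to 0.30 at the high dose, from -0.19 to 0.19 at the low dose and from -0.14 to 0.31 for high minus low, and Gad1-2 from -0.27 to 0.23 at the low dose and from -0.33 to 0.23 for high minus low. Among list genes at the low dose, Reln ran from -0.27 to 0.04, Mag from -0.30 to 0.55 and C1qc from -0.01 to 0.45. The count of members whose change differed between regions (1) became 0 with the scanner's processed ratios, the deposited value table, median centring or without the ventral striatum, 2 with probes required above background on all 24 arrays (Cck joined Vip), and 4 under a robust prior with an intensity trend (Cck, Sst and Pvalb joined); without 1 array number it ran from 0 to 1. The Vip call held under 13 of 19 alternatives, that of Slc6a13 over both doses under 13 of 24, of Hapln1 over both doses under 10 of 23 and of Reln at the low dose under 7 of 20. Among markers of other cells, the low-dose call of Mag held under 10 of 22, the high-dose call of Hbb under 11 of 22 (low dose 20 of 22), and the low-dose calls of C1qa, P2ry12 and C1qc under 13, 17 and 18 of 22. The low-dose value of Mag ran from -0.30 to 0.55 over these alternatives and that of C1qc from -0.01 to 0.45, so both crossed 0. Over both doses Kdr held under 22 of 24 and Slc2a1 under 19 of 24, and Sox9 under 21 of 22; Aspa held under 17 of 22 at the high and 21 of 22 at the low dose, Alas2 under 19 of 22 and 17 of 22, and Slc4a1 at the high dose under 16 of 21. The cause of these differences was not tested. Members whose level differed between regions numbered 8 to 11 under all alternatives (8 of 8 with 1 probe per gene), and Gad1-3 lost its call under 5 of them. The region of the highest saline level stayed the same for 9 or 10 of 10 probes. Signs of single member ratios differed from those reported in 76 of 927 recomputed values.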
